A study of Mus musculus with 18 samples.

Results

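The tumour necrosis factor (TNF) superfamily was followed across 18 mouse RNA-seq libraries. Members were taken by symbol, as every gene named Tnfsf or Tnfrsf with a number together with Tnf, Lta, Ltb, Fas, Fasl, Cd40 and Cd27. The rule found 39 genes among the 55401 lines of the endothelial table, of which 15 code for ligands, 23 for receptors and 1 is an antisense RNA, Tnfsf13os. In the table of EO771 cells it found 38 genes among 22612 lines, all but Tnfsf13os. Superfamily genes with other symbols, such as Ltbr and Cd70, are not members by this rule and were counted apart.

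The libraries fall into 6 groups of 3. BEC normal holds blood vessel endothelium (BECs) sorted from mammary fat pads and BEC tumour holds BECs of primary EO771 tumours. HEC normal holds high endothelium (HECs) from inguinal nodes of mice without tumours, and HEC tumour holds HECs of nodes that the labels call lymph node metastases. HECs line the high endothelial venules, through which lymphocytes enter the node. All 12 endothelial libraries came from wild-type C57BL/6 mice, from cells sorted as CD45- and CD31 high, with PNAd absent on BECs and present on HECs. EO771 vehicle and EO771 12-HETE are cultures of 1 mouse breast cancer cell line given solvent or the arachidonic acid product 12-HETE. The tissue of origin and its digestion differ together with the cell type, so these cannot be told apart between HECs and BECs. The study describes the libraries of a group as independent experiments, but the labels tie no library to a mouse or culture, so p-values measure the spread between these libraries.

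Ligands of the superfamily are mostly trimers held on the cell surface or shed from it, and they act by clustering their receptors. Some receptors carry a death domain and can start cell death, others bind TRAF adaptor proteins and activate NF-kB, and decoy receptors bind ligand without passing on a signal. Lymphotoxin acting through the lymphotoxin beta receptor maintains high endothelial venules in lymph nodes, and TNF is a classic activator of vascular endothelium.

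Total values ran from 56.4 to 79.4 M per endothelial library and from 17.3 to 18.6 M per EO771 library. Small endothelial values cluster near multiples of 3.695 units. Some lie between them, such as 2 for Tnfsf8 in a BEC tumour library and 5 for Lta in a HEC normal library. From this spacing, 1 counted fragment was taken as about 3.7 units. Fragment numbers given below for endothelium are summed values divided by this step and rounded, so they are estimates. The floor that a true 0 allows was taken as 3 fragments, or 11.1 units. In EO771 the floor is 3 counts, and floors and counting intervals cover counting error only. The 10 endothelial markers summed to between 2490 and 3650 CPM, which are counts scaled to one library total, in the endothelial libraries, and Pecam1 and Cdh5 were high in all 12. Cldn5, a tight junction gene of endothelium, had normalised values between 15830 and 19540 in BEC normal and between 13.8 and 137 in the other 9 libraries. The 8 markers of high endothelium summed to between 984 and 3060 CPM in HECs and to at most 38.3 CPM in BECs, with Chst2 at 0 in both HEC groups and Madcam1 at 0 in HEC normal. Of the defining genes, Chst4 had 4.07 in HEC normal replicate 2 against 19910 and 20210 in the other two, and Fut7 had 14260 in HEC tumour replicate 3 against 66480 and 65520, so these libraries stood apart on those genes. Markers of other cells differed between the BEC groups. The 9 myeloid markers summed to between 1500 and 2010 CPM in BEC tumour against between 114 and 136 in BEC normal, all 9 above the floor in BEC tumour, whereas the 9 fibroblast and pericyte markers summed to between 842 and 853 CPM in BEC normal against between 83.8 and 113 in BEC tumour. The 7 T cell markers summed to between 28.1 and 47.2 CPM in BEC tumour, mostly from Cd4, against at most 4.51 in BEC normal. The 7 markers of epithelium and EO771 summed to 23.8 or less in BEC tumour replicates 1 and 2, to 93.6 CPM in BEC tumour replicate 3 and to at most 6.92 in BEC normal. Their part in the changes of BECs with tumour was not tested. In bulk RNA, fewer cells of a type and less RNA per cell cannot be told apart.

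Of the members, 30 of 39 reached a mean of 10 in the endothelial table and 22 of 38 in the EO771 table, and these were tested within fits of all 18511 and 11602 genes that did. A gene was called when DESeq2 gave an adjusted p under 0.05 with a log2 fold change over 1 in size. Between HEC normal and BEC normal, 3 members were called higher and 6 lower in HECs, against backgrounds of 17.1% and 15.1% of all genes tested. Between HEC tumour and BEC tumour, 3 were higher and 3 lower, against 11.2% and 10.7%. With tumour, 5 members were higher and 3 lower in BECs, against 12.4% and 10.8% of all genes, and 5 were higher and 2 lower in HECs, against 4.58% and 3.21%. The interaction, which is the tumour effect in HECs less that in BECs, was called higher for 2 members and lower for 4, against 11.2% and 12.1%. In EO771 cells, 12-HETE left 1 member higher and 7 lower, against 2.38% and 7.79%. By adjusted p alone, members counted as higher and lower were 5 and 9 between HEC normal and BEC normal (31.4% and 31.9% of all genes), 4 and 10 between the tumour groups (25.9% and 28.4%), 7 and 7 in BECs with tumour (26.5% and 27.2%), 6 and 6 in HECs with tumour (16.9% and 18.5%), and 3 and 6 for the interaction (22.9% and 23.8%). The median log2 fold change of the members was -0.47, -0.17, -0.23 and 0.00 in the 4 comparisons of endothelial groups, in the order given, and -0.46 in EO771, against medians of all genes between 0.00 and 0.02. Without HEC normal replicate 2, which stood apart on Chst4, the members called between HEC tumour and HEC normal were 2 higher and 1 lower, and without HEC tumour replicate 3, which stood apart on Fut7, 2 and 3. Without the latter they were 2 and 5 between the tumour groups, and 1 and 4 for the interaction. Without BEC tumour replicate 3, which stood apart on epithelial markers, they were 6 and 2 in BECs with tumour, 2 and 2 between the tumour groups, and 1 and 4 for the interaction. The endothelial comparisons share groups with each other, and their values are set side by side below. Libraries of 2 groups often did not overlap. Of all genes tested, 32.7% lay wholly above and 34.0% wholly below in HEC normal against BEC normal. Between the tumour groups these shares were 30.9% and 31.8%. With tumour they were 29.1% and 30.4% in BECs and 24.7% and 24.1% in HECs, and with 12-HETE 30.2% and 30.5%. Lack of overlap in a called member is no further test.

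**Figure D1:**
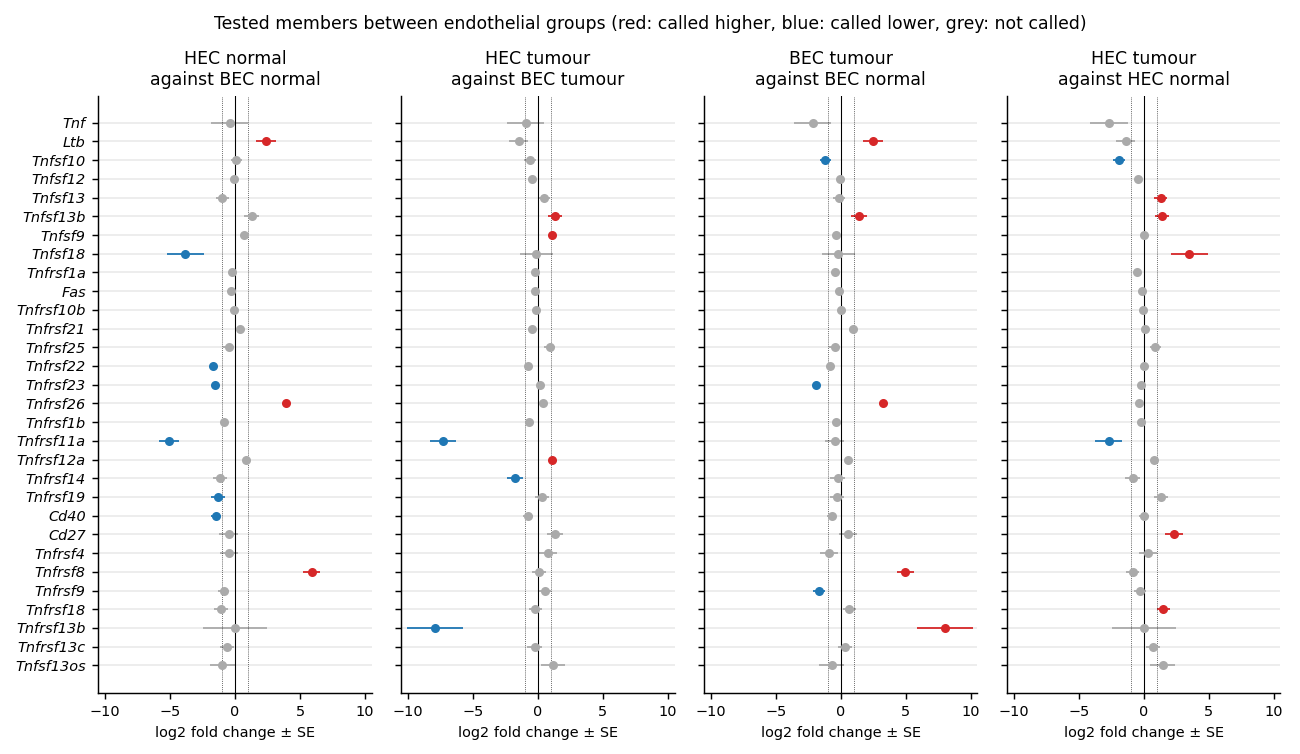
Log2 fold changes ± SE (x axis) of the 30 members tested (y axis, by role) in 4 comparisons of endothelial groups with 3 libraries each, red for called higher, blue for called lower and grey for not called; dotted lines mark a log2 fold change of 1 in size. Tnfrsf26 and Tnfrsf8 stand far to the right in both comparisons against BEC normal, and Tnfrsf11a far to the left in both comparisons of HECs with BECs.

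By level per kilobase of exon, the same pair of receptors led in every endothelial group, in another order in BEC normal. Tnfrsf12a, the receptor for TWEAK, made up 34.0% of the summed receptor level in BEC tumour, 35.1% of that in HEC normal and 53.2% of that in HEC tumour, followed by Tnfrsf1a, the main receptor for TNF, with 25.8%, 25.6% and 16.4%. In BEC normal the order was Tnfrsf1a with 34.6%, Tnfrsf12a with 22.9% and the decoy receptor gene Tnfrsf23 with 15.6%. The ligands were dominated by a pair of genes. Tnfsf12, which encodes TWEAK, and Tnfsf9, the ligand of CD137, held 62.4% and 30.6% of the summed ligand level in BEC tumour and 39.2% and 55.7% in HEC tumour. All other ligands stayed at or below 35.8 normalised units per kilobase in each group mean, against between 435.7 and 928.5 for these.

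**Figure D2:**
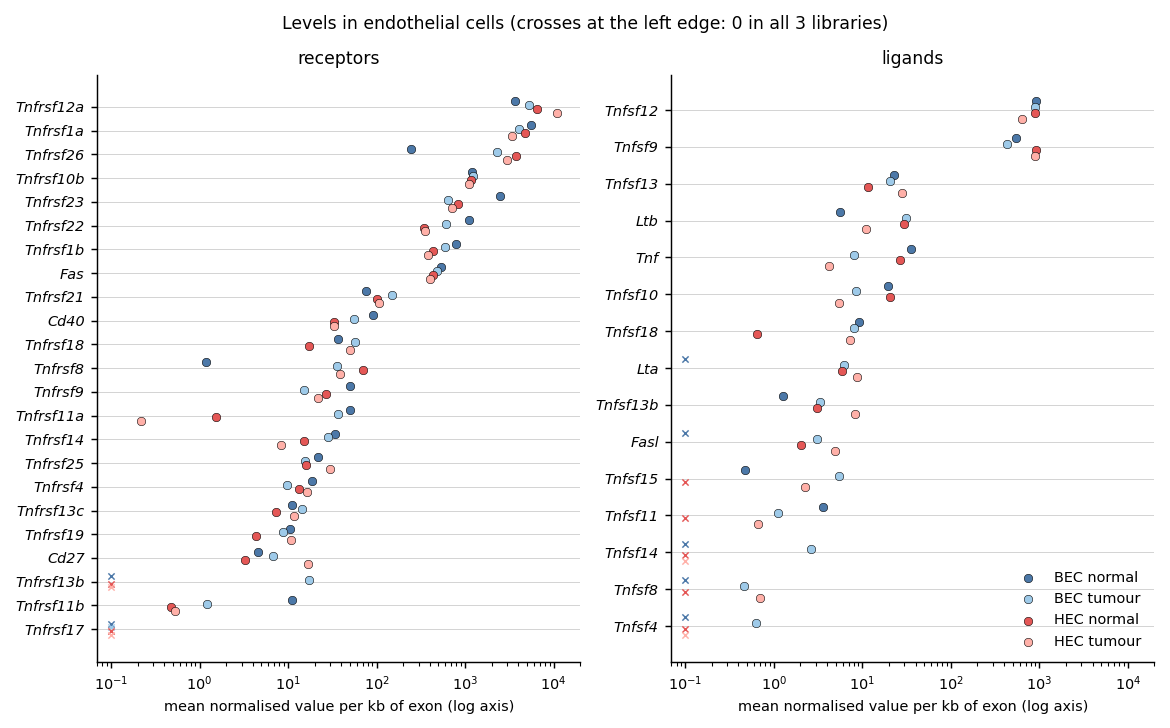
Mean normalised value per kilobase of merged exon (x axis, log scale) of each receptor (left) and ligand (right) in the 4 endothelial groups, each point a mean of 3 libraries and each cross a group at 0 in all 3. Tnfrsf12a and Tnfrsf1a lead the receptors, and Tnfsf12 and Tnfsf9 stand apart from the other ligands.

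Among the ligands, Tnf, Lta, Ltb and Tnfsf14 form the group of TNF and the lymphotoxins. Ltb encodes lymphotoxin beta, which anchors lymphotoxin to the cell surface. Its normalised values were 10.6, 7.06 and 8.13 in BEC normal, 47.3, 33.8 and 61.0 for BEC tumour, 50.7, 57.0 and 25.8 for HEC normal and 9.24, 3.95 and 37.6 for HEC tumour. All BEC normal libraries lay below all libraries of BEC tumour and of HEC normal, while 1 HEC tumour library stood apart from the other two. Ltb was higher in HEC normal libraries than in BEC normal (log2 fold change 2.37 ± 0.78, adjusted p = 0.00442) and rose with tumour in BECs (2.46 ± 0.77, adjusted p = 0.00364). The tumour effect was lower in HECs than in BECs (interaction -3.85 ± 1.08, adjusted p = 0.00115). The 5 leukocyte markers summed to between 79.9 and 132 CPM in BEC tumour, at most 9.63 in BEC normal and between 1.66 and 5.95 in both HEC groups, and their part in the Ltb change in BECs was not tested. Tnf varied within groups, with 131, 21.2 and 23.4 in BEC normal and 52.7, 79.4 and 0 in HEC normal, and was called in no endothelial comparison. Lta stayed under the filter, between 0 and 19 deposited units, and so did Tnfsf14, between 0 and 12.

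The death ligand Tnfsf10, which encodes TRAIL, was lower with tumour in both kinds of endothelium. It measured 92.6, 118 and 95.5 in BEC normal and 39.0, 66.0 and 28.8 in BEC tumour, a log2 fold change of -1.19 ± 0.42 (adjusted p = 0.0107). In HECs it measured 106, 117 and 105 without tumour and 13.9, 33.6 and 39.9 with tumour, a log2 fold change of -1.90 ± 0.44 (adjusted p = 8.44e-05). The libraries with and without tumour did not overlap in either cell type. The call in BECs was lost on leaving out BEC normal replicate 2, BEC tumour replicate 1 or BEC tumour replicate 3, with adjusted p of 0.0616, 0.0542 and 0.0624. Fasl, the ligand of FAS, was under the filter, between 0 and 12 deposited units.

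The B cell survival ligands Tnfsf13, which encodes APRIL, and Tnfsf13b, which encodes BAFF, were low throughout. Tnfsf13b measured 10.6, 11.8 and 4.06 in BEC normal, 20.4, 30.5 and 17.4 for BEC tumour, 31.4, 12.2 and 20.1 for HEC normal and 69.3, 43.4 and 58.7 for HEC tumour. The HEC tumour libraries were above all the others. Tnfsf13b was higher in HEC tumour libraries than in HEC normal (1.43 ± 0.55, adjusted p = 0.0281) and than in BEC tumour (1.32 ± 0.54, adjusted p = 0.0282), and higher in BEC tumour than in BEC normal (1.38 ± 0.60, adjusted p = 0.0414). Tnfsf13 rose from 18.3, 18.3 and 20.1 in HEC normal to 39.3, 28.6 and 70.8 in HEC tumour (1.29 ± 0.50, adjusted p = 0.0291). These 4 calls rest on few fragments, and each was lost without any 1 of several libraries. Without HEC tumour replicate 3 the log2 fold change of Tnfsf13 was 0.84 (adjusted p = 0.217), and the 3 calls of Tnfsf13b had adjusted p between 0.0606 and 0.175 in the fits that lost them on leaving out a library. Exons of Tnfsf13 overlap those of Tnfsfm13 on the same strand and of Tnfsf13os on the other over 73.5% of their length, so its value is uncertain. Tnfsf13os itself was not called, with group means between 8.12 and 22.1.

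The ligand of CD137, Tnfsf9, measured 694, 687 and 757 in BEC normal, 531, 608 and 548 for BEC tumour, 1257, 1169 and 1087 for HEC normal and 1261, 1084 and 1164 for HEC tumour. Every HEC library exceeded every BEC library. It was called higher in HEC tumour than in BEC tumour (1.06 ± 0.11, adjusted p = 1.31e-21), and between the normal groups it passed the adjusted p but not the fold (0.72 ± 0.11, adjusted p = 8.57e-11). Tnfsf18, the ligand of GITR, lay near the floor. It was counted in all BEC libraries, with normalised values between 13.5 and 21.2, but in HEC normal it gave 4.06, 0 and 0, and in HEC tumour 0, 15.8 and 29.9. It was called lower in HEC normal than in BEC normal (adjusted p = 0.0137), a ratio of 15 fragments to 1 (15.2, 95% counting interval between 2.34 and 641). The call between HEC tumour and HEC normal (adjusted p = 0.0436) rested on 12 fragments against 1, the groups overlapped, and it was lost without HEC tumour replicate 3 (adjusted p = 0.244) or HEC tumour replicate 2 (adjusted p = 0.110), or without HEC normal replicate 2 (adjusted p = 0.126) or HEC normal replicate 3 (adjusted p = 0.127). TWEAK, encoded by Tnfsf12, had group means between 967 and 1407, and with tumour in HECs it was lower below the fold threshold (-0.48 ± 0.09, adjusted p = 4.87e-07). Its exons overlap those of Tnfsfm13 over 48.3% of their length. The ligands Tnfsf4, Tnfsf8, Tnfsf11 and Tnfsf15 were under the filter, with at most 4, 8, 23 and 38 deposited units in any endothelial library.

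Among the receptors, the largest differences in highly expressed genes lay in neighbours on chromosome 7. Tnfrsf26, Tnfrsf22 and Tnfrsf23 stand side by side on the minus strand of GRCm38 at chr7:143607659-143628722, chr7:143634806-143649661 and chr7:143665809-143685872, with gaps of 6083 and 16147 bases. Tnfrsf22 and Tnfrsf23 encode receptors that bind TRAIL but lack a working death domain, and Tnfrsf26 encodes a related receptor. Their coding sequences of 615, 597 and 531 bases were aligned, since reads from near-identical stretches cannot be assigned. Tnfrsf22 and Tnfrsf23 shared 90.6% of aligned coding bases and an identical run of 306 bases between their transcripts, so their split is uncertain. Tnfrsf26 shared 61.6% with Tnfrsf22 and 58.7% with Tnfrsf23, with identical runs of at most 18 and 16 bases. A stretch of 90 coding bases, within 1 exon of each gene, shows this, with capitals at the 47 positions where the 3 genes are not all alike. Only 7 positions of the stretch set Tnfrsf22 apart from Tnfrsf23.
Tnfrsf26 (chr7:143618318-143618407, minus strand): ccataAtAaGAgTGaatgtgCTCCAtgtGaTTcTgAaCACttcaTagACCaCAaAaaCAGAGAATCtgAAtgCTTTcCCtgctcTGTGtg
Tnfrsf22 (chr7:143643284-143643373, minus strand): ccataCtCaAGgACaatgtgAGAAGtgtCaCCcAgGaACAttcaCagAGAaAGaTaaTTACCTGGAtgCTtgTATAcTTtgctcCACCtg
Tnfrsf23 (chr7:143679953-143680042, minus strand): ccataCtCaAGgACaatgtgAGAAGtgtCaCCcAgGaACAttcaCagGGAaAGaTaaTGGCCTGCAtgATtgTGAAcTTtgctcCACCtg

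Tnfrsf26 was far lower in BEC normal than in the other endothelial groups, and its neighbours were higher there. Tnfrsf26 measured 787, 788 and 780.2 in BEC normal, 7527, 7118 and 7333 for BEC tumour, 12250, 11850 and 11910 for HEC normal and 9437, 9365 and 9760 for HEC tumour. The 4 groups did not overlap. It was 15.3 times higher in HEC normal libraries than in BEC normal (3.93 ± 0.05) and 9.33 times higher in BEC tumour than in BEC normal (3.22 ± 0.05), both with an adjusted p too small for the software to represent. In HECs the value with tumour was 0.793 times that without (-0.33 ± 0.04, adjusted p = 6.16e-14), short of the fold threshold, and the interaction was -3.56 ± 0.07. Tnfrsf23 measured 10520, 9100 and 9965 in BEC normal, 2596, 2578 and 2516 for BEC tumour, 3629, 3331 and 2993 for HEC normal and 2717, 2904 and 2779 for HEC tumour. It was lower in HEC normal (-1.57 ± 0.08, adjusted p = 4.92e-75) and in BEC tumour (-1.94 ± 0.09, adjusted p = 1.70e-113) than in BEC normal. The interaction was 1.70 ± 0.12 (adjusted p = 3.75e-43). Tnfrsf22 measured 4869, 4281 and 4774 in BEC normal, 2444, 2691 and 2552 for BEC tumour, 1399, 1513 and 1476 for HEC normal and 1450, 1353 and 1625 for HEC tumour. It was lower in HEC normal than in BEC normal (-1.67 ± 0.09, adjusted p = 5.24e-74), and with tumour in BECs it missed the fold threshold (-0.86 ± 0.09, adjusted p = 9.17e-21). The fibroblast and pericyte markers, between 842 and 853 CPM in BEC normal and at most 113 in the other groups, moved with these differences, and their part was not tested. Tnfrsf11b, which encodes the decoy receptor osteoprotegerin, was under the filter, with values of 46.7, 30.6 and 15.2 in BEC normal and at most 6.77 elsewhere.

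**Figure D3:**
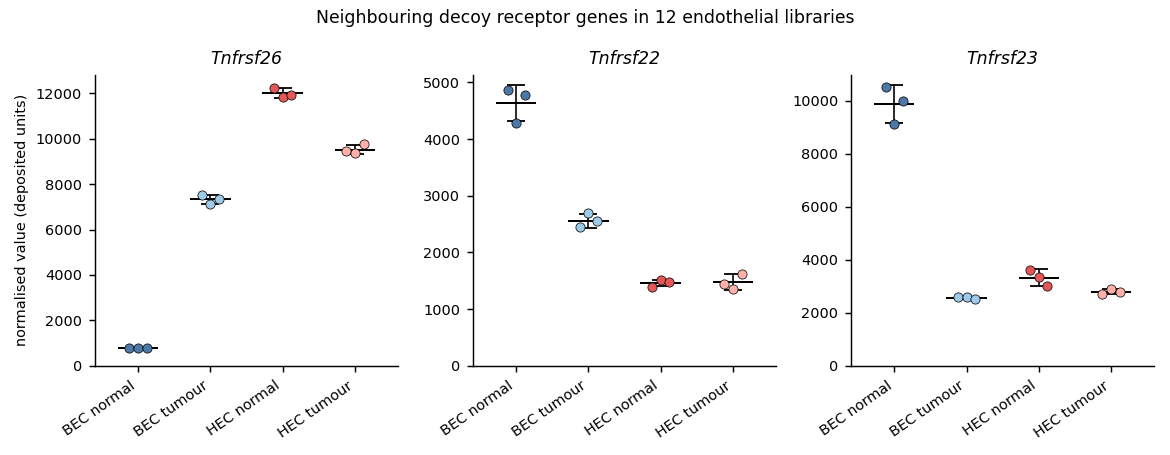
Normalised values (y axis, deposited units, linear from 0) of Tnfrsf26, Tnfrsf22 and Tnfrsf23 in the 4 endothelial groups (x axis), with each of 3 libraries as a point and the mean ± SD as bars. BEC normal is the lowest group for Tnfrsf26 and the highest for both neighbours.

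None of the 5 death domain receptors was called in any comparison of 2 endothelial groups. Tnfrsf1a had group means of 14290 ± 550 in BEC normal, 10450 ± 173 for BEC tumour, 12250 ± 496 for HEC normal and 8764 ± 380 for HEC tumour (SD, n = 3). It was lower with tumour in BECs (-0.45 ± 0.05, adjusted p = 9.07e-16) and in HECs (-0.48 ± 0.05, adjusted p = 3.49e-17), in each case below the fold threshold and without overlap of the libraries. Tnfrsf10b, the TRAIL receptor of the mouse, differed little, with group means between 6112 and 6743. Fas had group means between 827 and 1101 and Tnfrsf21, which encodes DR6, between 313 and 608. Tnfrsf25, the receptor for TL1A, had 44.1, 40.0 and 66.0 in BEC normal, 46.4, 28.8 and 32.3 for BEC tumour, 45.6, 38.7 and 23.9 for HEC normal and 86.6, 51.3 and 63.1 for HEC tumour. Its interaction was called (1.38 ± 0.60, adjusted p = 0.0461), but edgeR gave an adjusted p of 0.0721 and 8 of the 12 fits that left out a library lost the call.

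Among the TRAF-binding receptors of tissue cells, Tnfrsf12a was lowest in BEC normal and highest in HEC tumour. It measured 6871, 6915 and 7385 in BEC normal, 9950, 9472 and 11400 for BEC tumour, 12360, 12020 and 13250 for HEC normal and 19120, 25370 and 19060 for HEC tumour. No 2 groups overlapped. It was called higher in HEC tumour than in BEC tumour (1.04 ± 0.12, adjusted p = 1.27e-17). That fold stood just over the threshold and became 0.99 without BEC tumour replicate 2 and 0.89 without HEC tumour replicate 2, with the adjusted p still at 1.33e-12 and 3.77e-21. Its other differences passed the adjusted p below the fold threshold, namely 0.83 ± 0.12 between HEC normal and BEC normal, 0.76 ± 0.12 with tumour in HECs and 0.54 ± 0.12 with tumour in BECs. Tnfrsf11a encodes RANK, the receptor through which RANKL acts. It measured 333, 268 and 310 in BEC normal, 282, 249 and 127 for BEC tumour, 16.2, 11.2 and 0 for HEC normal and 0, 3.95 and 0 for HEC tumour. Each BEC library exceeded each HEC library. It was lower in HECs than in BECs without tumour (-5.06 ± 0.76, adjusted p = 1.12e-10) and with tumour (-7.29 ± 1.02, adjusted p = 5.89e-12), where 201 fragments stood against 1 (ratio 164, counting interval between 29.1 and 6520). The difference between HEC tumour and HEC normal, also called, was 1 fragment against 7 (adjusted p = 0.0316). As HEC normal over HEC tumour the ratio was 6.46, and its counting interval, between 0.83 and 291, takes in equal levels. The call was lost on leaving out HEC normal replicate 1 or 2 or HEC tumour replicate 1 or 3, with adjusted p of 0.168, 0.0887, 0.118 and 0.122. In edgeR it was lost too (adjusted p = 0.123). The call was also lost with values divided by the step and with the replicate number as a block. The ligand gene of RANK, Tnfsf11, was under the filter, with 20.3, 0 and 4.06 in BEC normal and at most 7.42 elsewhere.

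Tnfrsf14, which encodes HVEM, the receptor for LIGHT, measured 47.3, 24.5 and 51.4 in BEC tumour and 10.4, 6.91 and 18.8 in HEC tumour, and was lower in the latter (-1.78 ± 0.59, adjusted p = 0.00608) with no overlap. In the normal groups it measured 37.9, 71.8 and 37.6 in BECs and 14.2, 23.4 and 27.7 in HECs and was not called. Tnfrsf19, which encodes TROY, was lower in HEC normal, with 16.2, 30.5 and 14.3, than in BEC normal, with 52.9, 33.0 and 64.0 (-1.30 ± 0.55, adjusted p = 0.0313). That call was lost without BEC normal replicate 1 or 3 or HEC normal replicate 1 or 3, with adjusted p between 0.0851 and 0.133. It was also lost with values divided by the step, with the replicate number as a block and with only the groups compared in the fit. Tnfrsf1b, the second TNF receptor, had group means of 3035 in BEC normal, 2295 for BEC tumour, 1673 for HEC normal and 1460 for HEC tumour, and HECs were below BECs by less than the fold threshold (-0.86 ± 0.12 without tumour and -0.65 ± 0.12 with tumour).

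Among the receptors best known from lymphocytes and antigen-presenting cells, Tnfrsf8 was, like Tnfrsf26, lowest in BEC normal. It encodes CD30. It measured 0, 0 and 12.2 in BEC normal, 108, 134 and 134 for BEC tumour, 244, 244 and 236 for HEC normal and 95.8, 127 and 177 for HEC tumour. BEC normal lay far below the rest, which were counted in every library. Against BEC normal, the log2 fold change was 5.89 ± 0.66 in HEC normal (adjusted p = 1.62e-18) and 4.94 ± 0.66 in BEC tumour (adjusted p = 3.77e-13). By fragments, 197 in HEC normal and 116 in BEC tumour stood against 3 in BEC normal, ratios of 64.6 (counting interval between 21.8 and 316) and 33.7 (between 11.2 and 166). The interaction was -5.80 ± 0.83 (adjusted p = 2.83e-11). Tnfrsf8 lies 20266 bases from Tnfrsf1b on chromosome 4, on the same strand, and Tnfrsf1b was lower in HEC normal and BEC tumour than in BEC normal, below the fold threshold.

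Cd40, which encodes the receptor for CD40 ligand, measured 352, 240.1 and 337 in BEC normal, 200.4, 233 and 142 for BEC tumour, 147, 79.4 and 109 for HEC normal and 120.1, 66.1 and 149 for HEC tumour. All HEC normal libraries lay below all BEC normal libraries (-1.47 ± 0.36, adjusted p = 0.000111). Tnfrsf9, which encodes CD137, fell with tumour in BECs, from 138, 148 and 121 to 56.6, 32.2 and 35.7 (-1.71 ± 0.46, adjusted p = 0.000584). In HECs it ranged from 34.6 to 108 over the 6 libraries. Cd27 lay near the floor outside HEC tumour, where it measured 35.8, 50.3 and 29.9 against 4.06, 11.2 and 7.65 in HEC normal (2.34 ± 0.69, adjusted p = 0.00294). By fragments, 29 stood against 6, a ratio of 5.24 with a counting interval between 2.14 and 15.4. Tnfrsf18, which encodes GITR, rose from 25.4, 15.3 and 39.2 in HEC normal to 53.1, 102 and 73.1 in HEC tumour (1.51 ± 0.51, adjusted p = 0.0118), a call lost without HEC normal replicate 2 (adjusted p = 0.0713) or HEC tumour replicate 2 (adjusted p = 0.0919). In the BECs it measured 36.2, 48.3 and 84.3 without and 115, 88.8 and 57.5 with tumour. Exons of a gene on the other strand overlap 27.2% of its length. T cells also express Cd27 and Tnfrsf18. Of the 7 T cell markers, Cd3d, Cd3e, Cd3g and Cd8a were at 0 in both HEC groups and most of the sum came from Lck, with mean normalised values of 499 in HEC normal and 326 in HEC tumour, and the part of T cells in these values was not tested.

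Tnfrsf13b encodes TACI, a receptor for BAFF and APRIL on B cells. It was counted in BEC tumour alone, with 45.5, 62.6 and 38.4, and was at 0 in the 9 other endothelial libraries, at least 4.40-fold higher in BEC tumour when each group at 0 is set at the floor. DESeq2 called it against BEC normal (adjusted p = 0.000547) and against HEC tumour (adjusted p = 0.000634). Without BEC tumour replicate 1 the adjusted p was 0.0545 and 0.0558, and without BEC tumour replicate 3 the second was 0.0507. The 6 B cell markers were all above the floor in BEC tumour, but summed to between 5.59 and 6.82 CPM there against at least 9.66 in HEC normal, where Tnfrsf13b was at 0. Myeloid and leukocyte markers were highest in BEC tumour, as given above, and their part in the Tnfrsf13b value was not tested. Tnfrsf13c, which encodes the BAFF receptor, and Tnfrsf4, which encodes OX40, were low and not called, with group means between 14.9 and 29.1 and between 13.4 and 25.2. Tnfrsf17, the plasma cell receptor BCMA, was at 0 in all 12 endothelial libraries.

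**Figure D4:**
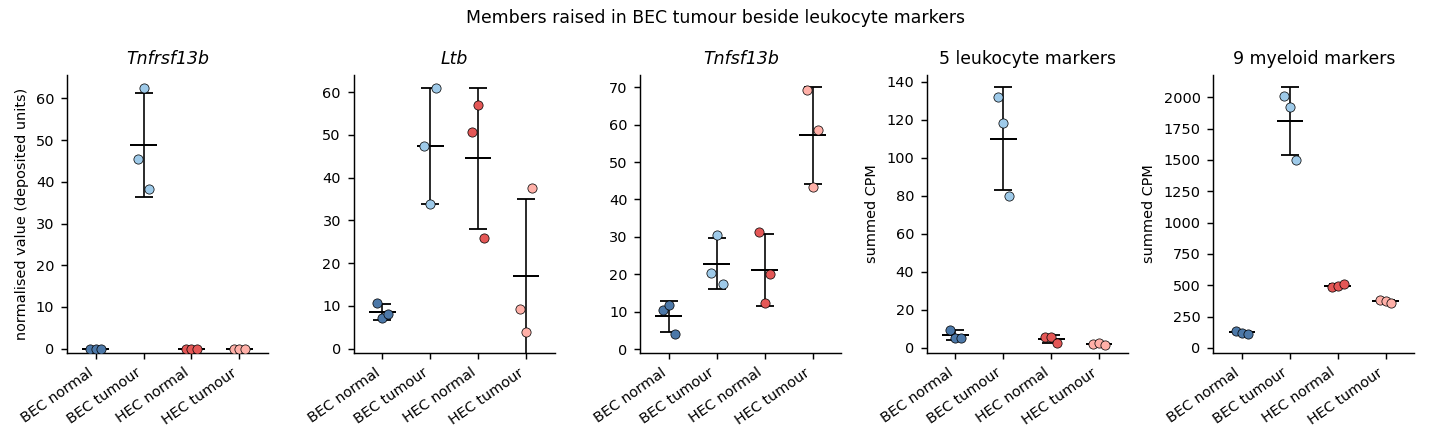
Normalised values (y axis, deposited units) of Tnfrsf13b, Ltb and Tnfsf13b, and summed CPM of 5 leukocyte and 9 myeloid markers, in the 4 endothelial groups (x axis), with 3 libraries as points and the mean ± SD as bars. Tnfrsf13b and both marker sums peak in BEC tumour, whereas Tnfsf13b is highest in HEC tumour.

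In EO771 cells, most members called were lower with 12-HETE. Of 6 ligands tested, 4 were called lower and none higher, and of 16 receptors 3 were lower and 1 higher, beside 7.79% of all genes lower and 2.38% higher. By adjusted p alone, 13 members were lower and 2 higher, against 24.2% and 22.7% of all genes tested. The receptor level per kilobase was again led by Tnfrsf12a, with 54.8% of the sum in vehicle and 45.7% with 12-HETE. Markers of epithelium summed to between 3240 and 4250 CPM in vehicle and between 2180 and 2240 CPM with 12-HETE. The spread between libraries was uneven. The mean squared deviation between paired libraries was 16.5 to 46.3 times that of counting noise in vehicle, and 2.39 to 2.72 times with 12-HETE. The fit gives each gene a single spread for both groups, so the adjusted p and SE below do not reflect this difference.

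The ligands that fell were Ltb, Tnfsf15, Tnfsf10 and Tnfsf4. Ltb went from 50.5, 85.1 and 59.4 normalised counts with vehicle to 8.22, 1.97 and 3.94 with 12-HETE (-3.80 ± 0.54, adjusted p = 2.53e-11). Tnfsf15, which encodes TL1A, went from 26.7, 29.6 and 34.8 to 2.05, 1.97 and 2.95, at or under the floor in each 12-HETE library (-3.70 ± 0.69, adjusted p = 6.66e-07). By counts these were 198 against 14, a ratio of 14.0 (counting interval between 8.15 and 26.1), and 92 against 7, a ratio of 13.0 (between 6.07 and 33.3). Tnfsf10 went from 94.0, 96.5 and 115 to 17.5, 14.8 and 7.87 (-2.93 ± 0.35, adjusted p = 9.45e-16). For each of these, every library with 12-HETE lay below every vehicle library, as for 30.5% of all genes tested. Tnfsf4, which encodes the OX40 ligand, went from 112, 235 and 109.5 to 59.6, 72.9 and 81.7 (-1.09 ± 0.33, adjusted p = 0.00358). Vehicle replicate 2 stood apart, and without it the log2 fold change was -0.64 (adjusted p = 0.0217); without 12-HETE replicate 1 it was -0.97 (adjusted p = 0.0402). Tnf was under the filter, with 11.9, 12.4 and 18.4 in vehicle and 0, 0.986 and 0.984 with 12-HETE, or 43 counts against 2 (ratio 21.3, counting interval between 5.55 and 181). Tnfsf12 and Tnfsf13 were not called, with log2 fold changes of 0.10 and -0.08, and the other ligands were under the filter.

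Among the receptors, Cd40 went from 167, 232 and 169.9 with vehicle to 47.2, 58.2 and 50.2 with 12-HETE (-1.87 ± 0.24, adjusted p = 5.78e-14). Fas, the death domain receptor of FAS ligand, went from 102, 133 and 122 to 45.2, 67.0 and 57.1 (-1.07 ± 0.25, adjusted p = 8.29e-05). Its fold was near the threshold, at -0.99 without vehicle replicate 2 and -0.93 without 12-HETE replicate 1. Tnfrsf9 went from 8.91, 22.9 and 17.4 to 5.14, 4.93 and 3.94 (-1.82 ± 0.69, adjusted p = 0.0199). With the replicate number as a block the adjusted p was 0.114, and without 12-HETE replicate 1, 2 or 3 it was 0.0705, 0.0792 and 0.104. Tnfrsf18 alone was called higher, from 38.6, 50.7 and 46.1 to 87.3, 102 and 84.6 (1.01 ± 0.26, adjusted p = 0.000314). The fold was 0.98 after scaling to the total count, 0.91 without vehicle replicate 1 and 0.93 without 12-HETE replicate 2, below the threshold each time. The groups did not overlap for any of these 4 receptors. Of all genes tested, 30.2% lay wholly above and 30.5% wholly below with 12-HETE.

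Smaller changes passed the adjusted p without reaching the fold. Tnfrsf12a measured 7542, 6145 and 6702 in vehicle and 3678, 4234 and 3909 with 12-HETE (-0.79 ± 0.11, adjusted p = 4.25e-11). Tnfrsf23 was lower by a log2 fold change of -0.98, Tnfrsf1b of -0.48, Tnfrsf1a of -0.44, Tnfrsf22 of -0.39 and Tnfrsf10b of -0.24. Tnfrsf19 was higher, at 1593, 1449 and 1442 against 878, 632 and 945 (0.87 ± 0.16, adjusted p = 4.67e-07). Tnfrsf26 differed little, with 83.2 ± 11.8 in vehicle and 80.7 ± 6.94 with 12-HETE (SD, n = 3). Tnfrsf11a and Tnfrsf8 were at 0 in all 6 EO771 libraries.

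**Figure D5:**
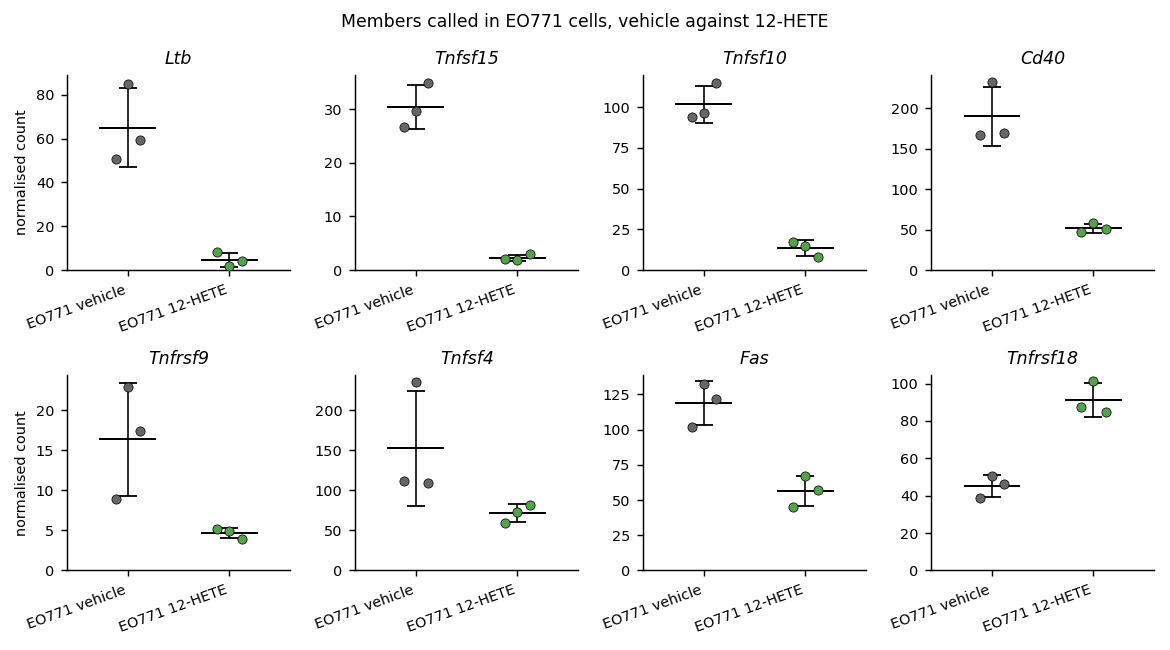
Normalised counts (y axes, linear from 0) of the 8 members called in EO771 cells, with vehicle and 12-HETE (x axes), 3 libraries each as points and the mean ± SD as bars. Libraries do not overlap between the treatments for any of the 8, as for 30.2% of all genes tested wholly higher and 30.5% wholly lower with 12-HETE. Tnfrsf18 is the member that is higher with 12-HETE.

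Promoters of the members were searched on both strands for sites of NF-kB and of interferon signalling. RefSeq promoters of GRCm38.p6, from 250 bases before to 50 after the start, were held for 30 members. The NF-kB consensus was found for 3 of these 30, a member counting once if any of its promoters held it, and in 4.51% of all 32851 promoters. The interferon response element core GAAANNGAA was found for 6 members and in 8.56% of all promoters, and the gamma-activated site TTCNNNGAA for 9 members and in 8.30%. Members with more than 1 promoter had more chances of a match, and a match is a description of letters only. Of the members called lower in EO771, Tnfrsf9, Ltb and Fas held matches before the start, and Tnfsf10 and Tnfsf15 held none in this window, while Cd40 and Tnfsf4 had no entry. Tnfrsf18, the member called higher, held a gamma-activated site too, at -99, and so did Tnfrsf1a, Tnfrsf1b and Tnfrsf19, which were not called. The interferon response element core was held by Tnfrsf1b, Tnfrsf4 and Tnfrsf14 among those not called and by no member called. The stretches around the matches of the members called lower are given from upstream to downstream, with the matched letters in capitals.
Tnfrsf9 (chr4:150927818-150927998, plus strand): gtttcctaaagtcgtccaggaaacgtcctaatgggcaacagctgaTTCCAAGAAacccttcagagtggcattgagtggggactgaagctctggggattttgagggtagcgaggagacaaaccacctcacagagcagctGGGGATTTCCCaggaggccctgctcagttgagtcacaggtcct
Ltb (chr17:35194290-35194474, plus strand): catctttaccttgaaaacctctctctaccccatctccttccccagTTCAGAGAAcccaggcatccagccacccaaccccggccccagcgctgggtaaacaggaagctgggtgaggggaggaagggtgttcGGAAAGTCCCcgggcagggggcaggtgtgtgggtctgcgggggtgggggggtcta
Fas (chr19:34290521-34290619, plus strand): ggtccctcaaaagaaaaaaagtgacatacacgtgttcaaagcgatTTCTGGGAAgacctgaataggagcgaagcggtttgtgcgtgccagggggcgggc
The first match in Tnfrsf9, in Ltb and in Fas is the gamma-activated site, with first bases at positions -136, -172 and -93 from the start. The later match is the NF-kB consensus, which begins at -87 in Ltb and, as overlapping matches, at -43 and -42 in Tnfrsf9.

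The wider pathway was followed in lists of genes. Of 42 genes that signal from TNF receptors, all tested, 7 were lower and 0 higher with 12-HETE in EO771. Of all genes tested there, 7.79% were lower and 2.38% higher. The median log2 fold change of the 42 was -0.36. Among those with a mean of at least 100, the largest fall was in Traf1 (-4.84 ± 0.24, adjusted p = 1.85e-91), an adaptor bound by many TNF receptors. Of 20 genes that TNF induces in endothelium, 14 of the 18 tested were lower in EO771 and 0 higher (median -1.95), led by the chemokine Cxcl10 (-5.82 ± 0.20, adjusted p = 2.06e-182). In endothelium the lists moved both ways. Shares of all genes called higher and lower were 17.1% and 15.1% between HEC normal and BEC normal. They were 11.2% and 10.7% between the tumour groups. With tumour they were 12.4% and 10.8% in BECs and 4.58% and 3.21% in HECs. Signalling genes were higher in 6 and lower in 7 cases between HEC normal and BEC normal, 2 and 3 between the tumour groups, 2 and 4 with tumour in BECs, and 2 and 1 with tumour in HECs. Traf1 was higher in HEC normal libraries than in BEC normal (2.35 ± 0.20, adjusted p = 4.97e-31), and Tnfaip3, the feedback inhibitor A20, rose with tumour in HECs (1.39 ± 0.32, adjusted p = 7.83e-05). The TNF-induced genes were higher in 3 and lower in 5 of 19 between HEC normal and BEC normal, 6 and 2 between the tumour groups, 2 and 5 with tumour in BECs, and 1 and 0 with tumour in HECs. For the interaction, 8 of these 19 were called higher and 2 lower (median log2 fold change 0.95), and signalling genes were 4 and 4. Of all genes tested, the interaction was called higher for 11.2% and lower for 12.1%. Icam1, a leukocyte adhesion molecule, rose with tumour in BECs (2.03 ± 0.14, adjusted p = 6.79e-46) and the chemokine Cx3cl1 fell (-3.87 ± 0.16, adjusted p = 3.16e-122).

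Of 11 superfamily genes with other symbols, 7 were tested in endothelium and 4 in EO771. Between HEC normal and BEC normal 1 was higher and 2 lower, between the tumour groups and with tumour in BECs 1 was higher and 1 lower each, and with tumour in HECs and in EO771 none was called. Shares of all genes called in these comparisons are those given above. Eda2r, the receptor for ectodysplasin A2, rose with tumour in BECs (1.36 ± 0.11, adjusted p = 4.12e-37) and also exceeded BEC normal in HEC normal (adjusted p = 4.31e-45). Ltbr, the lymphotoxin beta receptor, singled out after its values were seen because Ltb encodes its ligand, was called in no comparison. Its log2 fold change was 0.25 ± 0.08 between HEC normal and BEC normal and 0.04 ± 0.08 with tumour in HECs.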

How the data were processed

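RNA was sequenced from 18 libraries in 6 groups of 3, grouped by the labels. Reads had been mapped by the authors to GRCm38 (STAR) and assigned to genes (featureCounts). The deposited endothelial values were treated as estimated counts. They are whole numbers whose small values cluster near steps of 3.695 units (3.665 to 3.715 by library), with some between the steps. The cause of the steps is not given in the sources used here. The deposited EO771 values are raw counts named by symbol. Endothelial identifiers were matched to symbols by a reference table, with 260 unmatched. The methods and the labels name different endothelial library kits, and whether counting used the strand is not given in the sources used here, so overlapping genes are uncertain. Normalised values are values divided by the size factors of DESeq2, and CPM are relative to the total of a library.

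DESeq2 1.42.0 in R 4.3.3 was fitted to lines with a mean of at least 10, once to all 12 endothelial libraries by group and once to the 6 EO771 libraries, with two-sided Wald tests and Benjamini-Hochberg adjustment over all genes tested. edgeR 4.0.16 was an alternative; others were scaling to the total, no filter, values divided by the step, a test against a log2 fold change of 1, adjusted p alone, the replicate number as a block, only the groups compared, and leaving out each library. Scripts were tested on simulated data. With 3 libraries a side, the smallest two-sided exact permutation p is 0.1. Counting intervals are exact at 95% for the fragment numbers used, which are rounded estimates in endothelium. Reads carry no molecular identifiers.

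Members called in at least 1 of 6 comparisons are given with every library, the others by range, and of each list only the gene with the largest change each way among genes with a mean of at least 100 may be named. The members and lists were chosen with earlier results of these data known. In EO771, same-numbered libraries deviated together (correlations 0.163, 0.311 and 0.488). Deviations from a group mean cancel out over its libraries, so some numbering always correlates best, and these values cannot establish pairing. In endothelium, same-numbered libraries did not deviate together in all pairs.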

Additional observations from a re-analysis of the deposited data

Results flagged for a closer look

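The tumour effect differed between HECs and BECs for 6 members by the interaction term of the DESeq2 fit over all 12 endothelial libraries, given as the log2 effect in HECs less that in BECs. Tnfrsf26 had -3.56, with an effect of 3.22 in BECs and -0.33 in HECs. Tnfrsf8 had -5.80, with 4.94 in BECs and -0.86 in HECs, Tnfrsf23 had 1.70, with -1.94 and -0.24, and Ltb had -3.85, with 2.46 and -1.40. Tnfrsf13b had -7.91, from values above 0 in BEC tumour alone, and Tnfrsf25 had 1.38, with -0.49 in BECs and 0.89 in HECs. The first 3 kept their call in all 18 alternatives, Ltb in 17 of 18, Tnfrsf13b in 11 of 17 and Tnfrsf25 in 6 of 18. The interaction is called for 11.2% and 12.1% of all genes tested, higher and lower.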

How the results depend on the processing

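The 44 changes of members that were called were rerun under the other settings, which made 579 pairs of a change and a setting. Of these pairs, 469 kept the direction and the call, 110 kept the direction only and 0 reversed. Of the 44, 16 kept the call throughout, 10 lost it only when tested against a log2 fold change of 1, and 18 under other settings. Counts are given as higher and lower, and a direction left out stayed near its count in the main fit. When tested against a log2 fold change of 1, members called were 3 lower for HEC normal against BEC normal, 0 higher for HEC tumour against BEC tumour, 0 and 0 for HEC tumour against HEC normal, 3 and 1 for BEC tumour against BEC normal, 1 and 2 for the interaction, and 0 and 4 in EO771. With adjusted p alone, they were 5 and 9 for HEC normal against BEC normal and 4 and 10 for HEC tumour against BEC tumour. They were 6 and 6 for HEC tumour against HEC normal, 7 and 7 for BEC tumour against BEC normal, 3 and 6 for the interaction, and 2 and 13 in EO771. For HEC tumour against HEC normal, edgeR gave 2 and 1, values divided by the step 2 and 1, and the fit of only both groups 1 lower. That last fit gave 5 lower for BEC tumour against BEC normal. For the interaction, edgeR and the values divided by the step gave 1 higher each. Without a filter 5 were higher for HEC normal against BEC normal, and scaling to the total left 0 higher in EO771. Of the called changes in endothelium, 27 kept the call with values divided by the step and 9 lost it.

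With the replicate block, HEC tumour against HEC normal gave 3 higher and 1 lower and the interaction 1 higher; the block took the call from 7 endothelial changes and from Tnfrsf9 in EO771, and changed no other call in EO771. In endothelium the numbers were treated as shared names only. Correlations between same-numbered libraries ran from -0.085 to 0.302, and not every library correlated best with its own number. Between HEC normal and BEC normal each library did (0.095, 0.101 and 0.037), so pairing was not settled.

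Leaving out 1 library at a time, the counts ran from 3 to 4 higher and 6 to 8 lower for HEC normal against BEC normal, 2 to 3 and 2 to 5 for HEC tumour against BEC tumour, 2 to 5 and 1 to 3 for HEC tumour against HEC normal, 3 to 6 and 2 to 3 for BEC tumour against BEC normal, 1 to 5 and 3 to 5 for the interaction, and 0 to 1 and 4 to 7 in EO771. Depth limits the low members most, since 3 fragments were taken as 11.1 units in the endothelial table. Division by the step was not run on EO771, whose counts have none, nor the fit of only 2 groups on the interaction.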
